A study of Homo sapiens with 3 samples.

Results

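The ends described here are those of human telomerase RNA (hTR) that ran past the mature 3′ end by 1 to 9 genome-encoded nucleotides. They were chosen by the length of genomic addition alone, and are 9 of the 200 lengths, 0 to 199 nt, listed for each of 3 libraries. They held 803005 of 2658507 reads in the PABPN1 library, 1537018 of 3040560 in the hTERT library and 1583146 of 2996292 in the DKC1 library. Each library came from hTR recovered with an anti-Flag antibody from human embryonic kidney cells (HEK293 by the cell line label, 293FT by the source name). The cells of each group expressed either Flag-PABPN1, Flag-hTERT or Flag-DKC1 from a tetracycline-sensitive promoter that all groups share, induced in each with 500 ng/ml doxycycline. The bound protein was therefore a tagged, induced form in every group, and each protein had 1 library. No untagged precipitate and no input RNA were analysed here, so no background can be set beside the values.

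hTR is the RNA template of telomerase. It is transcribed past its mature 3′ end, and nucleases then trim the precursor. Short adenosine tails added by the poly(A) polymerase PAPD5 mark such ends for further processing or decay, and the deadenylase PARN removes tails and helps maturation. PABPN1 binds adenosine tails of nuclear RNA. DKC1 (dyskerin) binds the H/ACA domain that ends mature hTR, and hTERT is the reverse transcriptase that joins hTR in active telomerase. The design compares hTR recovered with PABPN1 to hTR recovered with either of these telomerase proteins.

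hTR is encoded by TERC (gene ID 7012), annotated as telomerase RNA at chromosome 3, positions 169764610 to 169765060 of GRCh38.p14. TERC lies on the minus strand. If an addition of 0 nt is the annotated 3′ end, which the table headers do not state, additions of 1 to 9 nt cover positions 169764609 down to 169764601, where the RefSeq gene table lists 0 genes. The bases there were not read here, so whether a genome-encoded adenosine lies next to an end is unknown, and adenosines of the genome and of a tail may have been told apart differently at each length. The tables list tails of 0, 2, 3, 4, 5 and 6 adenosines. A tail of 1 has no column, and whether the column for 6 also holds longer tails is not given in the sources used here. Below, an end is called tailed if it carries 2 or more adenosines.

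All values are deposited read counts or shares of them. Intervals are 95% exact Clopper-Pearson for a share, Newcombe for a difference in percentage points and Katz for a ratio of shares. They cover the counting error of reads only. Amplified reads with no molecular identifier can be copies of the same molecule, which these intervals do not allow for. With 1 library a protein there is no replicate error, so no test between proteins was made, and a difference between proteins cannot be told apart from a difference between libraries. Comparisons of additions within a library do not mix protein and library in this way. They too lack replicate error, and those reads share a library and a PCR.

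Ends extended by 1 to 9 nt were 30.2% of the PABPN1 library, 50.6% of the hTERT library and 52.8% of the DKC1 library. The difference was -20.3 points for PABPN1 minus hTERT (interval -20.4 to -20.3) and -22.6 points for PABPN1 minus DKC1 (-22.7 to -22.6). The shortfall was uneven. At 1 nt PABPN1 was close to hTERT, with 7.83% of reads beside 7.89%, and below DKC1, with 9.02%. At 9 nt the libraries were close, with 1.90% in PABPN1, 2.12% in hTERT and 1.92% in DKC1. PABPN1 held 2.15%, 3.19% and 3.19% of its reads at 4, 5 and 6 nt. The shares at these lengths were 5.005%, 7.83% and 8.26% in hTERT and 5.47%, 7.92% and 8.004% in DKC1. Just outside the window, the mature end held 48.1% of reads in PABPN1, beside 46.0% in hTERT and 44.2% in DKC1. The addition of 10 nt held 1.33%, 1.19% and 1.06%. A larger PABPN1 excess lay farther out. Additions of 10 to 29 nt together made up 20.1% of the PABPN1 library, but 3.44% for hTERT and 2.96% for DKC1. PABPN1 minus hTERT was 16.7 points there (interval 16.6 to 16.7), and PABPN1 minus DKC1 was 17.2 points (17.1 to 17.2).

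The window held most tails of the hTERT and DKC1 libraries but not of the PABPN1 library. It also held fewer of all PABPN1 reads, 30.2%, beside 50.6% in hTERT and 52.8% in DKC1. The shares below therefore also carry this difference in where the ends lay. Of the tails of 2 adenosines in a library, 47.7% lay on these ends in PABPN1, against 90.5% in hTERT and 91.8% in DKC1. For tails of 4 the shares were 34.0%, 89.2% and 91.2%, and for tails of 6 they were 35.7%, 88.8% and 91.6%. Tails of 5 were the least concentrated here, with 30.3% in PABPN1, 67.9% in hTERT and 74.8% in DKC1.

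Over all 9 additions, the tailed share was 11.8% in PABPN1 (interval 11.7 to 11.9), against 6.65% in hTERT (6.61 to 6.69) and 6.31% in DKC1 (6.28 to 6.35). The ratio was 1.78 for PABPN1 over hTERT (1.76 to 1.79), 1.87 for PABPN1 over DKC1 (1.85 to 1.89) and 1.05 for hTERT over DKC1 (1.04 to 1.06). The addition of 3 nt carried much of this. Without it the tailed shares were 7.97%, 4.996% and 4.99%, and the ratios 1.60, 1.60 and 1.0004 (interval of the last 0.990 to 1.01). So the small excess of hTERT over DKC1 in the window was not present without that addition, whereas the excess of PABPN1 was.

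Tailed ends were more frequent in PABPN1 than in either other library at each of the 9 additions. The PABPN1 share was at least 1.5 times the hTERT share at 8 of the 9, where 44% of the 25 additions with 100 or more tailed reads in both libraries met that fold. It was also at least 1.5 times the DKC1 share at 8 of the 9, beside 47.8% of 23 additions. The exception in each comparison was 1 nt, with ratios of 1.49 over hTERT (1.45 to 1.52) and 1.49 over DKC1 (1.46 to 1.52). For hTERT over DKC1 the fold was met at 0 of the 9 (0% of 23 additions). The medians over the 9 additions were 8.01% tailed in PABPN1, 4.74% in hTERT and 4.88% in DKC1. Over all additions with 100 or more tailed reads they were 40.2%, 10.6% and 7.66%, but those additions reached 58 nt in PABPN1 and only 24 and 22 nt in hTERT and DKC1.

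The additions differed in the mix of tails they carried. All 5 listed tail lengths were counted at all 9 additions in all 3 libraries. The smallest count was 25 reads, for tails of 5 at 9 nt in PABPN1, so no addition carried tails of 2 alone. The nearest to that was the addition of 3 nt.

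At 3 nt the tailed share was 41.3% in PABPN1 (interval 40.9 to 41.6), against 21.2% in hTERT (21.0 to 21.4) and 17.0% in DKC1 (16.8 to 17.2). Tails of 2 were counted in 35109 PABPN1, 27811 hTERT and 23916 DKC1 reads there. They were 91.8% of the tailed ends of 3 nt in PABPN1, against 83.7% in hTERT and 80.9% in DKC1. This single addition thus held 51.6% of all tails of 2 of the window in PABPN1, against 45.9% in hTERT and 40.7% in DKC1. Tails of 3 or more formed 8.18% of the tailed ends in PABPN1, 16.3% in hTERT and 19.1% in DKC1. Under a limit of 10% for such tails, 1 of 9 additions qualified in PABPN1, the one of 3 nt, beside 1 of 59 additions with 100 or more tailed reads (1.69%). In hTERT 0 of 9 qualified (0% of 25 additions), and in DKC1 0 of 9 (0% of 23).

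The high tailed share at 3 nt lay mainly in tails of 2. As a share of ends, tails of 2 stood at 37.9% of PABPN1, 17.8% of hTERT and 13.8% of DKC1 ends at 3 nt. At the other 8 additions they ran between 3.51 and 5.63% in PABPN1, between 1.38 and 3.20% in hTERT and between 1.25 and 3.48% in DKC1. Tails of 3 or more, in contrast, were carried by 3.38% of PABPN1, 3.45% of hTERT and 3.25% of DKC1 ends at 3 nt. These values lay between those of 1 nt and 4 nt in every library. Beside the nearer neighbour, 2 nt, the libraries differed. PABPN1 had 3.73% there, above its value at 3 nt. The hTERT share of 2.65% and the DKC1 share of 2.28% were below theirs. At 1 nt the shares were 2.30%, 2.13% and 1.84%, and at 4 nt 5.99%, 5.03% and 4.76%. For this class as a whole at 3 nt, the ratio was 0.979 for PABPN1 over hTERT (0.937 to 1.022) and 1.04 for PABPN1 over DKC1 (0.995 to 1.08), intervals that include equality, but its members went opposite ways. PABPN1 was above hTERT for tails of 3, with a ratio of 1.40 (1.32 to 1.49), and below it for tails of 4, 5 and 6, with 0.770 (0.706 to 0.839), 0.397 (0.307 to 0.514) and 0.609 (0.545 to 0.679). Over DKC1 the ratios were 1.33 for tails of 3 (1.25 to 1.41) and 0.862, 0.374 and 0.793 for tails of 4, 5 and 6, each with an interval below 1. For tails of 2 at the same addition the ratios were 2.13 (2.10 to 2.16) and 2.75 (2.71 to 2.79), and for hTERT over DKC1 1.29 (1.27 to 1.31).

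**Figure D1:**
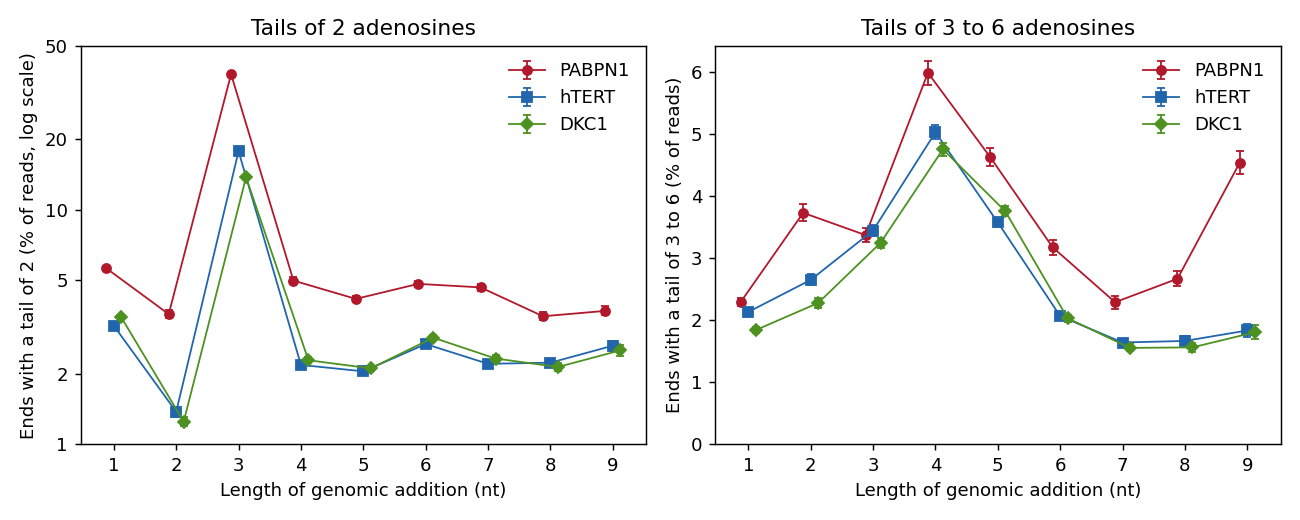
Share of ends at each addition of 1 to 9 nt that carry a tail of 2 adenosines (left, log scale) or of 3 to 6 adenosines (right, linear scale), as percent of the reads at that addition in the PABPN1, hTERT and DKC1 libraries; bars are 95% Clopper-Pearson intervals for counting error. Tails of 2 stand out at 3 nt in each library, at 37.9%, 17.8% and 13.8%, whereas tails of 3 to 6 are highest at 4 nt, at 5.99%, 5.03% and 4.76%, and in PABPN1 reach 4.55% again at 9 nt.

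Longer tails were centred on 4 and 5 nt. The share of ends with 3 or more adenosines was highest at 4 nt in each library and second at 5 nt, with 4.63% of PABPN1, 3.58% of hTERT and 3.76% of DKC1 ends. In hTERT and DKC1 a tail of 3 was the leading tail at exactly these additions. At 4 nt, tails of 3 formed 33.4% of tailed hTERT ends and 35.2% of tailed DKC1 ends, against 30.2% and 32.4% for tails of 2. The margin was larger at 5 nt, with 39.5% and 42.4% for tails of 3 against 36.4% and 35.9% for tails of 2. In PABPN1 tails of 2 led at both, with 45.4% against 29.5% at 4 nt and 47.4% against 36.4% at 5 nt. A tail of 3 was therefore the most frequent at 0 of 9 additions in PABPN1 (1.69% of 59), at 2 of 9 in hTERT (12% of 25) and at 2 of 9 in DKC1 (13% of 23). The mature end is the only further addition counted in these background shares.

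Tails of 4 had their highest share of tailed ends at 4 nt in hTERT, with 27.1%, and in DKC1, with 24.3%. In PABPN1 they formed 17.3% there and 20.7% at 9 nt. As a share of all ends at 4 nt, tails of 4 stood at 1.90% in PABPN1, 1.96% in hTERT and 1.71% in DKC1, closer to each other than for tails of 2, which stood at 4.99%, 2.18% and 2.28%.

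Longer tails outnumbered tails of 2 at a minority of additions. Tails of 3 or more exceeded 50% of tailed ends at 2, 4, 5 and 9 nt in PABPN1, 4 of 9 beside 5 of 59 additions in all (8.47%). They did so at 2, 4 and 5 nt in hTERT, 3 of 9 beside 16% of 25, and at the same 3 additions in DKC1, beside 17.4% of 23. At 2 nt their share was 51.0% in PABPN1 (interval 49.7 to 52.3), against 65.8% in hTERT (64.5 to 67.1) and 64.6% in DKC1 (63.3 to 65.9). The values at 4 nt were 54.6%, 69.8% and 67.6%, and those at 5 nt 52.6%, 63.6% and 64.1%. At 1 nt tails of 2 led, and longer tails took 28.98% in PABPN1, 40% in hTERT and 34.6% in DKC1.

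From 6 to 9 nt the share of tailed ends with 3 or more adenosines was nearly flat in hTERT and DKC1, and in PABPN1 it was not. It lay between 41.1 and 43.6% in hTERT and between 40.1 and 42.3% in DKC1 over these 4 additions. The mix within these longer tails was less even. In DKC1, tails of 3 formed 59.8% of them at 8 nt and 65.2% at 9 nt, against 58.9% and 54.6% in hTERT. In PABPN1 the share with 3 or more adenosines was 39.7% at 6 nt, 32.9% at 7 nt, 43.2% at 8 nt and 55.1% at 9 nt (interval 53.6 to 56.6). PABPN1 was 9.77 points below hTERT at 7 nt (interval of the difference -11.4 to -8.10) and 14.0 points above it at 9 nt (11.7 to 16.3). Against DKC1 the differences were -7.18 points at 7 nt (-8.85 to -5.50) and 13.3 points at 9 nt (10.8 to 15.7). At 8 nt the intervals of both differences included 0, from -1.72 to 2.46 points against hTERT and from -1.23 to 3.07 points against DKC1.

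Most of the PABPN1 excess of long tails at 9 nt, in percent of ends, lay in tails of 3 and 4. Tails of 3 were on 2.59% of ends in PABPN1, 1.002% in hTERT and 1.18% in DKC1, and tails of 4 on 1.71%, 0.615% and 0.502%. For tails of 4 the ratio was 2.78 over hTERT (2.47 to 3.12) and 3.40 over DKC1 (2.98 to 3.88). Tails of 6 were fewer, on 0.200% of PABPN1, 0.147% of hTERT and 0.0747% of DKC1 ends, with ratios of 1.36 over hTERT (1.03 to 1.80) and 2.68 over DKC1 (1.87 to 3.82). The excess as a share of ends was present at 10 nt too, just outside the window. Tails of 3 or more were on 5.21% of PABPN1, 2.26% of hTERT and 2.23% of DKC1 ends there, a ratio of 2.31 over hTERT (2.13 to 2.51), beside 2.48 at 9 nt (2.31 to 2.65). As a share of tailed ends, in contrast, they stood at 42.2% in PABPN1, 38.7% in hTERT and 39.2% in DKC1 at 10 nt. Tails of 2 had a ratio of 2.003 over hTERT there (1.88 to 2.14), beside 1.41 at 9 nt (1.32 to 1.502). Over 10 to 29 nt the shares of tailed ends were 38.8%, 40.5% and 38.4%.

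**Figure D2:**
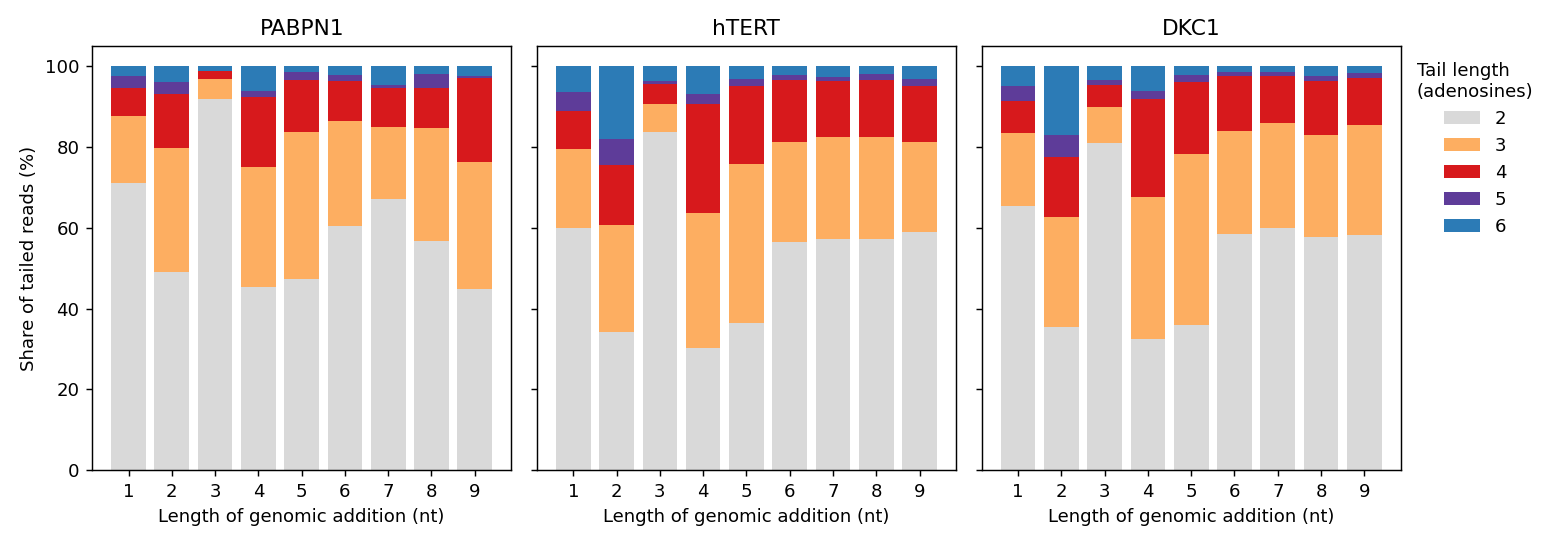
Composition of tailed ends by tail length (2 to 6 adenosines, stacked, percent of tailed reads) at each addition of 1 to 9 nt, with panels for the PABPN1, hTERT and DKC1 libraries and 1 library a protein. Tails of 2 take 91.8%, 83.7% and 80.9% at 3 nt. From 6 to 9 nt they take 56.4 to 58.9% in hTERT and 57.7 to 59.9% in DKC1. Tails of 6 take 18.0% and 17.0% at 2 nt in hTERT and DKC1 against 3.88% in PABPN1.

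The longest listed tails were most frequent at additions of 2 and 3 nt in hTERT and DKC1. Tails of 6 at 2 nt were counted in 215 PABPN1, 932 hTERT and 910 DKC1 reads. They formed 3.88% of tailed ends in PABPN1, 18.0% in hTERT and 17.0% in DKC1. As a share of ends they stood at 0.284%, 0.726% and 0.599%, a ratio of 0.391 for PABPN1 over hTERT (0.337 to 0.453) and 0.474 over DKC1 (0.409 to 0.550). This was the lowest ratio for tails of 6 among the 9 additions in both comparisons.

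At 3 nt tails of 6 were carried by 0.466% of PABPN1, 0.766% of hTERT and 0.588% of DKC1 ends, and at 4 nt by 0.687%, 0.503% and 0.431%. From 6 nt on they were on 0.106% of hTERT ends or fewer up to 8 nt and on 0.147% at 9 nt. In DKC1 they stayed between 0.0607 and 0.0869% from 6 to 9 nt. PABPN1 had a second high value at 7 nt, where 269 reads, or 0.328% of ends, carried 6 adenosines, against 191 reads (0.0997%) in hTERT and 110 reads (0.0607%) in DKC1. The ratio there was 3.29 over hTERT (2.74 to 3.96) and 5.41 over DKC1 (4.34 to 6.75), the highest of the 9 additions for this tail.

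Tails of 5 were the rarest at most additions. At all 9 additions in hTERT and in DKC1 there were more tails of 6 than of 5, beside 96% of 25 and 78.3% of 23 additions. The ratio of 6 over 5 lay between 1.37 and 3.97 in hTERT and between 1.36 and 3.18 in DKC1. In PABPN1 tails of 6 were the more frequent at 6 of 9 additions, beside 76.3% of 59, and the ratio ran from 0.530 at 8 nt to 6.72 at 7 nt. At the mature end the order was the opposite in all 3 libraries, with ratios of 0.337 in PABPN1, 0.181 in hTERT and 0.266 in DKC1. What the column for 6 includes bears on each of these ratios.

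Few reads lie behind tails of 5 at several additions. Their counts were highest at 1 nt, with 486 PABPN1, 593 hTERT and 524 DKC1 reads. These were 37.8%, 28.9% and 28.0% of all tails of 5 of the window. In PABPN1 tails of 5 were counted in 71 reads at 3 nt, 40 at 7 nt, 149 at 8 nt and 25 at 9 nt. At 8 nt they were on 0.222% of ends in PABPN1, 0.0575% in hTERT and 0.0476% in DKC1. PABPN1 thus had 3.86 times the hTERT share (2.89 to 5.16). At 3 nt they were on 0.0766%, 0.193% and 0.205%, a ratio of 0.397 over hTERT (0.307 to 0.514). At 7 nt and at 9 nt the intervals of this ratio included 1, from 0.724 to 1.53 and from 0.419 to 1.10.

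**Figure D3:**
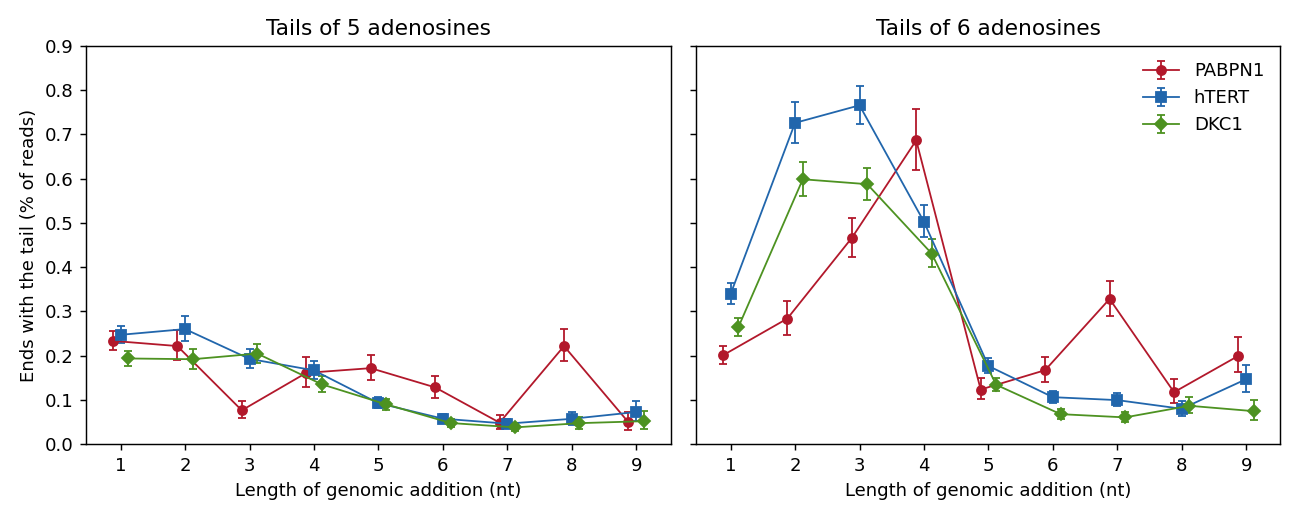
Share of ends carrying a tail of 5 (left) or 6 (right) adenosines at each addition of 1 to 9 nt, as percent of reads at that addition, for the PABPN1, hTERT and DKC1 libraries; bars are 95% Clopper-Pearson intervals for counting error. Tails of 6 are highest at 2 and 3 nt in hTERT (0.726% and 0.766%) and in DKC1 (0.599% and 0.588%), with overlapping intervals in each. In PABPN1 they are highest at 4 nt (0.687%). PABPN1 departs from the others again at 7 nt for tails of 6 (0.328%) and at 8 nt for tails of 5 (0.222%).

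The excess of PABPN1 over the other libraries thus lay mainly in tails of 2. Over the window, tails of 2 were on 8.48% of PABPN1, 3.95% of hTERT and 3.71% of DKC1 ends, and tails of 3 on 2.01%, 1.41% and 1.47%. Tails of 4 were on 0.891%, 0.849% and 0.762%, tails of 5 on 0.160%, 0.133% and 0.118%, and tails of 6 on 0.268%, 0.311% and 0.258%. The ratio of PABPN1 over hTERT was 2.15 for tails of 2 (2.13 to 2.17), 1.43 for tails of 3 (1.40 to 1.46), 1.05 for tails of 4 (1.02 to 1.08), 1.20 for tails of 5 (1.12 to 1.29) and 0.863 for tails of 6 (0.820 to 0.908). Over DKC1 it was 2.29 (2.26 to 2.31), 1.37 (1.35 to 1.40), 1.17 (1.14 to 1.20), 1.35 (1.26 to 1.45) and 1.04 (0.988 to 1.10) for the same tails. Without the addition of 3 nt the ratios over hTERT were 1.95, 1.43, 1.09, 1.35 and 0.935, and those over DKC1 1.88, 1.38, 1.22, 1.59 and 1.12.

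Only for tails of 2 and for tails of 3 was PABPN1 above hTERT and above DKC1 at 9 of 9 additions. These counts by tail length go by the ratio alone. They were not made over all additions, so no background share stands beside them. For tails of 4 PABPN1 was above hTERT at 7 of 9, with intervals that included 1 at 1, 5 and 8 nt. It was above DKC1 at 8 of 9. For tails of 5 it was above hTERT at 4 of 9, with an interval that included 1 at 7 nt. It was above DKC1 at 7 of 9, with intervals that included 1 at 2, 4 and 7 nt. For tails of 6 it was above hTERT at 5 of 9 and below at 4 of 9, namely at 1, 2, 3 and 5 nt. It was below DKC1 at the same additions, with an interval that included 1 at 5 nt (0.738 to 1.15). The ratios over hTERT for tails of 6 ran from 0.391 to 3.29, whereas those for tails of 2 ran from 1.41 at 9 nt to 2.61 at 2 nt. Over 10 to 29 nt, outside the window, the ratios over hTERT for tails of 2, 3, 4, 5 and 6 were 2.02, 1.96, 1.82, 2.59 and 1.41, each above 1. For tails of 3 or more, the ratio was 1.23 in the window (1.21 to 1.25) and 1.88 at 10 to 29 nt (1.82 to 1.95).

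Among tailed ends, PABPN1 had the smallest share of longer tails across most of the window. Tails of 3 or more formed 28.2% of its tailed ends over the 9 additions, against 40.7% in hTERT and 41.2% in DKC1, and 41.7% against 52.4% and 50.5% without 3 nt. Their share was higher in PABPN1 than in hTERT at 2 of 9 additions, 8 and 9 nt (20% of 25 additions), and higher than in DKC1 at the same 2 (39.1% of 23). At 8 nt the intervals of both differences included 0. The count against hTERT was close to its share over all additions, so it does not set the window apart. The mean listed tail over the window was 2.45 adenosines in PABPN1, 2.71 in hTERT and 2.69 in DKC1.

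**Figure D4:**
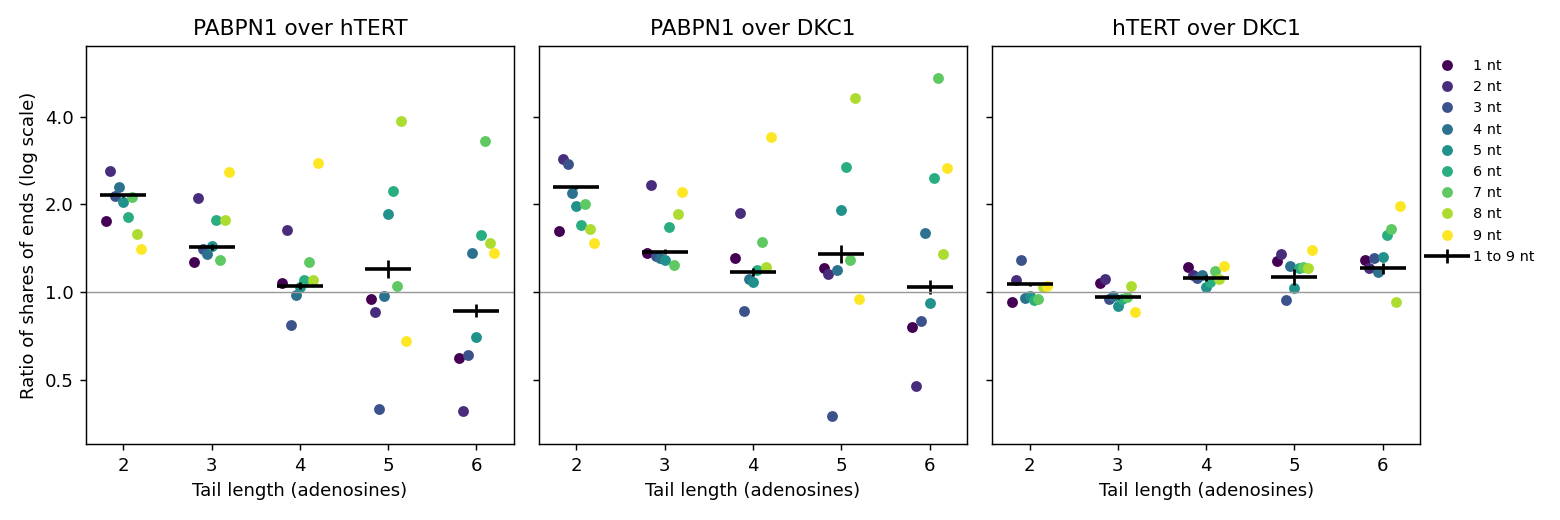
Ratio between libraries of the share of ends carrying each tail length (log scale), with panels for PABPN1 over hTERT, PABPN1 over DKC1 and hTERT over DKC1; coloured points are single additions of 1 to 9 nt and black bars the pooled window with its 95% Katz interval for counting error. For PABPN1 over hTERT the pooled ratio is 2.15 for tails of 2 and 0.863 for tails of 6, and the points spread most for tails of 5 and 6, while for hTERT over DKC1 they stay between 0.851 and 1.97.

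The hTERT and DKC1 libraries resembled each other closely in this window. The distance between their spectra, the share of tailed reads that would have to change tail length, was between 0.909% at 8 nt and 5.36% at 1 nt. Between PABPN1 and hTERT it was between 4.86% at 8 nt and 19.1% at 2 nt, and between PABPN1 and DKC1 it was between 3.76% at 6 nt and 17.0% at 2 nt. Counted among tails of 3 or more alone, the distance between hTERT and DKC1 ran from 1.68% at 8 nt to 10.6% at 9 nt. Their largest difference in share of ends was in tails of 2 at 3 nt, given above. Tails of 4, 5 and 6 were also mostly more frequent in hTERT. For tails of 5 the ratio over the window was 1.13 (1.06 to 1.20). It was above 1 at 8 of 9 additions, the exception being 3 nt with 0.941 (0.808 to 1.10), but from 5 to 9 nt the intervals included 1. Tails of 4 were above DKC1 at 9 of 9 additions, with ratios between 1.04 and 1.22. Their intervals included 1 at 5 and 8 nt. Tails of 6 were above DKC1 at 8 of 9, the exception being 8 nt with a ratio of 0.922 (0.691 to 1.23). These counts for tails of 4, 5 and 6 were not made over all additions either. Over the window the ratio of hTERT over DKC1 was 1.11 for tails of 4 (1.09 to 1.14), 1.21 for tails of 6 (1.16 to 1.26), 1.06 for tails of 2 (1.05 to 1.08) and 0.961 for tails of 3 (0.944 to 0.979). The share of tailed ends with 3 or more adenosines was higher in hTERT at 6 of 9 additions, beside 69.6% of 23. It was lower in hTERT at 3 nt, by a difference of -2.84 points (-3.44 to -2.25), and over the window, at -0.589 points (-1.02 to -0.160). Without the addition of 3 nt the window difference had the opposite sign, at 1.86 points (1.34 to 2.38). No repeat library shows how far such differences would move.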

How the data were processed

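The authors deposited a table of whole-number read counts for each library, with lengths of genomic addition as rows and polyadenylation lengths as columns, per the file headers. Each table was matched to its sample by its heading. Per the labels' protocols, hTR-specific libraries were made by ligation-mediated 3′ RACE and run on a MiSeq instrument. The submitters' processing notes name cutadapt, Bowtie, Bowtie2 and hg38 but give neither their role nor their order. How duplicates and genome-encoded adenosines were handled is not given in the sources used here.

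Counts were used as deposited, without normalization, at depths of 2658507 (PABPN1), 3040560 (hTERT) and 2996292 (DKC1) reads. Shares, their intervals and ratios were computed from them, and the interval formulas were tested on simulated data. All 9 additions are named, with 0 and 10 nt as neighbours. The background holds every addition with at least 100 tailed reads. The members, limits and lists were chosen with earlier results of these data known. Alternatives were equal weights, leaving out 3 nt, windows of 1 to 8 and 1 to 10 nt, tails of 3 or more, other limits, and removal of possibly misassigned reads. Python 3.11.15, numpy 2.4.6, scipy 1.17.1, pandas 2.3.3 and matplotlib 3.10.9 were used.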

Additional observations from a re-analysis of the deposited data

How the results depend on the processing

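Alternatives gave 52 values. Of these, 17 fell inside the interval printed for that result (or, for counts of additions, within 1.5 times the count) and 35 fell outside. A change of direction was looked for only in the ratios of tailed shares, and 0 of those changed it. Among tailed reads, the share with 3 or more adenosines was lower in hTERT than in DKC1 in the main setting, at 40.7% and 41.2%. With equal weights and without 3 nt it was higher in hTERT, as the values below show. Libraries are in the order PABPN1, hTERT, DKC1. Tailed shares were 7.97%, 4.996% and 4.99% without 3 nt and 12.1%, 6.74% and 6.39% over 1 to 8 nt. With equal weights they moved to 6.71% in hTERT and 6.17% in DKC1, and without possibly misassigned PABPN1 reads to 6.61% in hTERT. Shares of tailed reads with 3 or more adenosines were 40.7%, 47.3% and 46.2% with equal weights and 41.7%, 52.4% and 50.5% without 3 nt. In PABPN1 they were 27.0% over 1 to 8 nt and 28.8% over 1 to 10 nt. The window held 28.3%, 48.4% and 50.9% of reads at 1 to 8 nt and 31.5%, 51.7% and 53.9% at 1 to 10 nt. Ratios of tailed shares are given for PABPN1 over hTERT, PABPN1 over DKC1 and hTERT over DKC1. They were 1.69, 1.76 and 1.04 as the mean log ratio of the 9 additions, 1.60, 1.60 and 1.0004 without 3 nt, and 1.23, 1.28 and 1.04 for tails of 3 or more. With a limit of 5% in place of 10%, the number of additions where tails of 2 were nearly all tails was 0 in PABPN1, and with 20% it was 1 in hTERT and 1 in DKC1, each the addition of 3 nt. The removal took, from each hTERT and DKC1 count, 1.54 and 1.06 reads per 100 PABPN1 reads, the level from 40 nt on. No paired analysis was possible because each protein has 1 library. Depth limits tails of 5 and 6 from 7 nt on, which rest on 25 to 269 reads.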
